A study of Mus musculus with 18 samples.

Results

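Mouse cells write, copy, read and remove DNA methylation with a small set of proteins, and the genes described here are 10 of them, out of 55469 genes with a value in every library. They were taken by name: the maintenance pair Dnmt1 and Uhrf1, the de novo methyltransferase genes Dnmt3a and Dnmt3b with their partner Dnmt3l, the dioxygenase genes Tet1, Tet2 and Tet3, and the PRAME family genes Pramel6 and Pramel7. All 10 were found, each under 1 gene identifier. Their level is given as FPKM, a fragment number scaled for transcript length and library size, which the authors obtained with StringTie from poly-A RNA-Seq of 18 libraries in 9 groups of 2. The question is how these genes differed between pluripotent cells kept by the OSKM factors and those kept in 2iL, a medium known to lower DNA methylation.

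OSKM-ESCs were embryonic stem cells (ESCs) of a Tet-On-OSKM/Oct4-GFP line that had been moved from 2iL to N2B27 with doxycycline (DOX), which turns on Oct4, Sox2, Klf4 and c-Myc, and they were collected at days 18, 25 and 38. 2iL-ESCs of the same line and days stayed in 2iL, which is N2B27 with the MEK inhibitor PD0325901, the GSK3 inhibitor CHIR99021 and LIF. The ESC strain is given as (C57BL/6 x 129S4/SvJae)F1 crossed with (CBA/CaJ X C57BL/6J)F2, and that of the other cells as (C57BL/6 x 129S4/SvJae)F1. OSKM-iPSCs were clones 1 and 3, at passages 7 and 6, induced from Tet-On-OSKM fibroblasts and kept in N2B27 with DOX. 2iL-iPSCs were clones 3 and 6, at passages 2 and 3, induced in 2iL with DOX. For these clones the sample labels give N2B27 with DOX as the daily medium, whereas by the methods DOX was taken away once clones were picked and 2iL was used, so their medium is not settled and is called 2iL here after the methods. The MEF cells, mouse embryonic fibroblasts at passage 4, were grown in DMEM with serum. All cells carried M2rtTA in Rosa26 and the OSKM cassette in Col1a1. The ESCs were 1 line and the cultures stood on fibroblast feeders. In OSKM-ESCs both the inhibitors with LIF were absent and the factors were on, and libraries of ESCs in N2B27 alone were not analysed here, so these changes cannot be told apart. Passage and medium cannot be told apart in the iPSCs. Nothing states that the ESC replicates were separate cultures, and p-values then measure the spread between these libraries, which may be technical.

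The labels held against the markers. Summed over 10 pluripotency markers, the level was 1211 to 3468 FPKM in the ESC and iPSC libraries and 1.15 to 2.06 FPKM in MEF cells, where Pou5f1, Nanog, Zfp42 and 4 further markers were at 0. Fibroblast markers, 12 genes, summed to 1250.1 to 1424 FPKM in MEF cells. They summed to 22.5 to 35.5 FPKM in OSKM-ESCs, 5.11 to 6.79 FPKM in 2iL-ESCs, 93.1 FPKM in clone 1 and 6.20 FPKM in clone 3 of the OSKM-iPSCs, and 3.72 to 5.72 FPKM in 2iL-iPSCs. A fibroblast share was taken as the median, over these 12 genes, of each gene's ratio to its mean MEF level. It was 1.58% to 2.67% in OSKM-ESCs, 0.166% to 0.340% in 2iL-ESCs and 6.31% in OSKM-iPSC clone 1. Taking this share of the MEF level off moved no call of the 10 genes in ESCs or iPSCs. The amount taken off was at most 5.46% of the level of any of the 10 genes in any ESC or iPSC library, for Tet3 in clone 1. Markers of other cell types also differed in ESCs. Over all days 4 of 5 neural markers tested were higher in OSKM-ESCs and 1 lower, against 29.5% and 24.4% of all genes. At day 38 the 7 primitive endoderm markers summed to 6.76 to 8.59 FPKM in OSKM-ESCs, against 0.750 to 1.06 in 2iL-ESCs. The 3 tested passed the filter on low values only through OSKM-ESCs and had to be higher. Of 3 trophoblast markers tested at day 38, Cdx2 (log2 difference 4.41) and Eomes (0.70) were higher and Tfap2c lower (-0.96). Only 2 of them exceeded an FPKM of 1 in a 2iL-ESC library of that day. The remaining gene passed the filter only through OSKM-ESCs and had to be higher. Of all genes, 34.6% were higher and 25.2% lower at that day. Their part in the results below was not tested. The depth in reads is unknown, since no read counts are given, and the median coverage per unit of FPKM was 2.99 to 3.62 in the 18 libraries.

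DNMT1 copies methylation to the new DNA strand after replication, and UHRF1 brings it to hemimethylated CpG sites. DNMT3A and DNMT3B add methyl groups to unmethylated CpG sites, and DNMT3L, which has no catalytic activity, stimulates them. TET enzymes oxidize 5-methylcytosine, which can lead to its loss by replication or base excision repair. In naive mouse ESCs methylation is low, UHRF1 protein is known to be held down, and PRAMEL7 is known to direct UHRF1 to degradation through a CUL2 ubiquitin ligase. RNA levels say nothing of protein or of methylation, neither of which was measured here.

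Pramel6 and Pramel7 lie beside each other on chromosome 2 in head-to-head orientation, 9471 bases apart, and are shown because they were expressed in every 2iL-ESC library and at or near 0 in the OSKM-ESCs. Pramel6 is at 87506565 to 87510872 on the plus strand and Pramel7 at 87489087 to 87497093 on the minus strand (GRCm38). Their reference transcripts are 60.7% identical over 1474 aligned bases, with a longest shared run of 15 bases, and the authors kept uniquely mapped reads. The promoter windows of RefSeq (GRCm38.p6) run from 250 bases before to 50 bases after the transcript start, and CpG sites are in capitals. Dnmt3b, a CpG-rich gene of the same chromosome, is shown for contrast.
Pramel6, chr2:87506315-87506614, plus strand: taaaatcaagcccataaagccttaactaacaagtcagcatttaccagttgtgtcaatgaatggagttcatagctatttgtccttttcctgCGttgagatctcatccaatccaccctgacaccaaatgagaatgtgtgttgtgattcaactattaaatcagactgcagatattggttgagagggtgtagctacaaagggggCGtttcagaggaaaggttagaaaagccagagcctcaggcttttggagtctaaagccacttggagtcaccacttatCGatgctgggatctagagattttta
Pramel7, chr2:87492369-87492668, minus strand: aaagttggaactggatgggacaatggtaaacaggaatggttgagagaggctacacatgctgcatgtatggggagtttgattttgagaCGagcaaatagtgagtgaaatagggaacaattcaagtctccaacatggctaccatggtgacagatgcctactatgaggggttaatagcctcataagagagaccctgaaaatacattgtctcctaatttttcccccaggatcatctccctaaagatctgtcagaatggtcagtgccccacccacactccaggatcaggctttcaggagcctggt
Dnmt3b, chr2:153649199-153649498, plus strand: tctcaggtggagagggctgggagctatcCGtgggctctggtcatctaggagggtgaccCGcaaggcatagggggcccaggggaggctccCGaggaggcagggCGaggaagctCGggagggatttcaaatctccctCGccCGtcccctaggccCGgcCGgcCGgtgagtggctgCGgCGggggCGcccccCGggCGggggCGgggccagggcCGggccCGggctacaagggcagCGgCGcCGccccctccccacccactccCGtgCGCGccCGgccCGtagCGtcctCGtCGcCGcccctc
The Pramel7 window holds 1 CpG and the Pramel6 window 3, against a median of 7 over 32851 promoters, and 5.43% and 23.3% of promoters hold fewer. The Dnmt3b window holds 30. The RefSeq start of Pramel7 lies inside the annotated gene span. Of the other genes, the 3 Dnmt3l windows hold 3 to 6 CpG, Tet2 holds 57, more than in 99.8% of promoters, Tet1 holds 17 and Tet3 holds 22. The motifs CACGTG (E-box), TTCCNGGAA (STAT), AAGGTCA (ESRRB) and ATTTGCAT (octamer), were searched on both strands. Among the 17 windows of the 10 genes the E-box was in 1 window of Dnmt3a and 1 of Dnmt3l and the others in none, against 7.15%, 1.15%, 4.72% and 1.74% of all promoters. These are letters in a window and not binding sites.

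**Figure D1:**
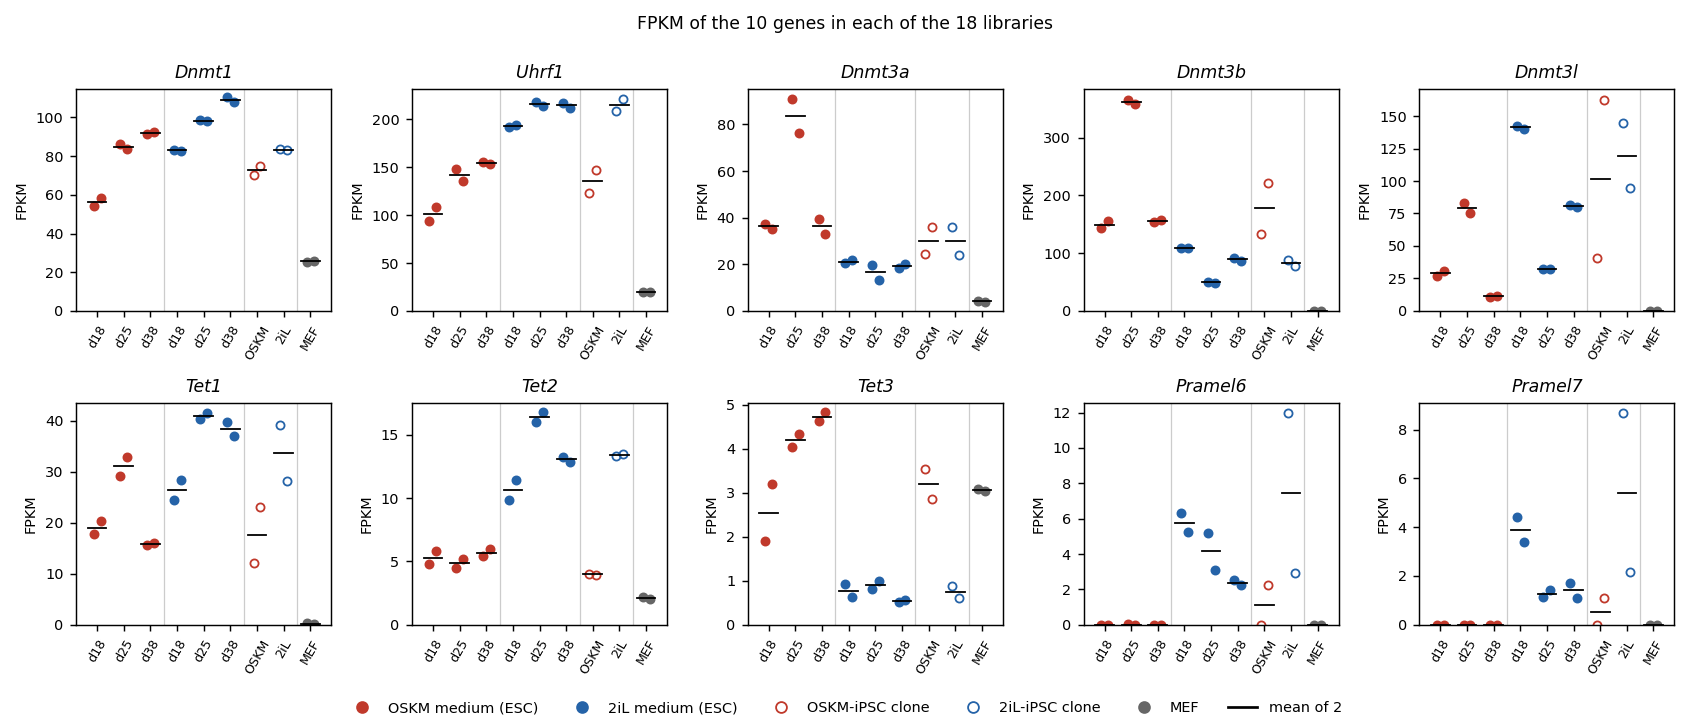
FPKM of each of the 10 genes (vertical axis, from 0, its own scale in each panel) in the 18 libraries, grouped along the horizontal axis as OSKM-ESCs of days 18, 25 and 38, 2iL-ESCs of the same days, OSKM-iPSCs, 2iL-iPSCs and MEF cells; points are libraries and lines the mean of 2. Pramel6 and Pramel7 are at or near 0 in the 6 OSKM-ESC libraries, and Dnmt3b and Dnmt3l stand highest in OSKM-ESCs and lowest in 2iL-ESCs at day 25.

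In ESCs over the 3 days, 9 of the 10 genes differed between media at an adjusted p under 0.05, where 53.8% of the 14016 genes tested did (limma on log2(FPKM + 1), Benjamini-Hochberg adjustment over all genes tested). Higher in OSKM-ESCs were 3 genes, Dnmt3a, Dnmt3b and Tet3, against 29.5% of all genes, and lower were 6, Dnmt1, Uhrf1, Tet1, Tet2, Pramel6 and Pramel7, against 24.4%. Tet3, Pramel6 and Pramel7 passed the filter on low values only through the medium in which they are high and had to differ. Of the other 7 genes, 6 passed the test. In 7 of the 10 genes, or 4 of those 7, the 6 OSKM-ESC libraries did not overlap the 6 2iL-ESC libraries, where 26.7% of all genes did not. Their median log2 difference was -0.68, and that of all genes 0.03. In bulk RNA, fewer cells of a type and less RNA per cell cannot be told apart. Without day 25 all 10 genes passed the test.

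Dnmt1 (chromosome 9, 20907209 to 20959888, minus strand) was lower in OSKM-ESCs. At day 18 it had an FPKM of 54.4 and 58.2 in OSKM-ESCs and 83.1 and 82.9 in 2iL-ESCs. Day 25 gave 86.0 and 83.4 against 98.7 and 98.05, and day 38 gave 91.6 and 92.4 against 110.4 and 108. At each day both OSKM libraries lay below both 2iL libraries, while over all days the groups overlapped, since the level changed across days and was highest at day 38 in both media (adjusted p = 0.0040 and 0.0026). The log2 difference was -0.34 ± 0.06 (SE, adjusted p = 6.8e-04) over all days and -0.55, -0.21 and -0.24 at days 18, 25 and 38, of which day 25 missed the threshold (adjusted p = 0.071) and passed without replicate 1 or 2 of the OSKM-ESCs (0.028 and 0.038). The day 18 call was lost without replicate 1 or 2 of the 2iL-ESCs (adjusted p = 0.069 and 0.065). In order of mean level, 2iL-ESCs of day 38 stood first with 109 FPKM and MEF cells last with 25.7 FPKM. The middle of the order, from OSKM-ESCs of day 25 (84.7 FPKM) to 2iL-iPSCs (83.3 FPKM), did not separate.

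Uhrf1 (chromosome 17, 56303321 to 56323486, plus strand) showed a larger difference than Dnmt1 and no overlap. OSKM-ESCs had 94.3 and 108 FPKM at day 18, 148 and 136 at day 25, and 155 and 153 at day 38. 2iL-ESCs had 192 and 194, 218 and 214, and 217 and 212 on the same days. The highest OSKM-ESC library, at 155 FPKM, was thus below the lowest 2iL-ESC library, at 192 FPKM. Mean FPKM was 1.57-fold higher in 2iL-ESCs, with a log2 difference of -0.67 ± 0.07 (SE, adjusted p = 1.3e-05). By day it narrowed from -0.93 at day 18 to -0.60 and -0.47. Per unit of Dnmt1, Uhrf1 stood at 1.63 to 1.86 in OSKM-ESCs and 1.97 to 2.34 in 2iL-ESCs, and at 0.745 and 0.782 in MEF cells. 2iL-ESCs of days 25 and 38 and 2iL-iPSCs, at 215 to 216 FPKM on average, did not separate from each other at the top of the order.

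Both genes are known to be used in S phase. The 13 DNA replication genes beside them summed to 1152 to 1161 FPKM in OSKM-ESCs and 1538 to 1545 in 2iL-ESCs at day 18, where 7 of the 13 were lower in OSKM-ESCs and 0 higher. At day 25 the sums were 1361 to 1404 and 1390.2 to 1403 FPKM, and at day 38 they were 1477 to 1527 and 1476 to 1491 FPKM. Over all days 1 of the 13 was higher, Mki67 (log2 difference 0.34), and 3 were lower, among them Mcm6 (-0.36) and Mcm3 (-0.32). By day, 1 was higher and 3 were lower at day 25, and 4 were higher and 4 lower at day 38. Of all genes, 29.5% were higher and 24.4% lower over all days. By day these shares were 25.7% and 17.7% at day 18, 20.7% and 25.3% at day 25, and 34.6% and 25.2% at day 38. The part of the replication genes in the Dnmt1 and Uhrf1 differences was not tested.

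Dnmt3b (chromosome 2, 153649450 to 153687730, plus strand) was higher in OSKM-ESCs at each day. OSKM-ESCs had 144 and 155 FPKM at day 18, 366 and 358 at day 25, and 154 and 158 at day 38. 2iL-ESCs had 108 and 109, then 50.3 and 48.2, then 91.5 and 86.6 FPKM. Day 25 was therefore the highest day in OSKM-ESCs and the lowest in 2iL-ESCs. The ratio of mean FPKM, OSKM to 2iL, was 1.37 at day 18, 7.35 at day 25 and 1.75 at day 38. Log2 differences were 0.45 ± 0.11, 2.85 ± 0.08 and 0.80 ± 0.04 (SE, adjusted p = 0.016, 8.3e-05 and 9.8e-05), and over all days 1.37 ± 0.31 (adjusted p = 0.0029). Without day 25 the difference over the other days was 0.63 and still passed. The day 18 call was lost without replicate 1 or 2 of the 2iL-ESCs (adjusted p = 0.11 and 0.10) and without replicate 2 of the OSKM-ESCs (0.055). The antisense gene Dnmt3bos, which overlaps Dnmt3b on the other strand, did not exceed 0.644 FPKM, and the library kit kept no strand.

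Dnmt3a (chromosome 12, 3806007 to 3914443, plus strand) followed Dnmt3b. Its FPKM was 37.5 and 34.97 at day 18, 90.8 and 76.4 at day 25, and 39.5 and 33.1 at day 38 in OSKM-ESCs. In 2iL-ESCs it was 20.7 and 21.7, 19.7 and 13.3, and 18.6 and 20.1. The lowest OSKM-ESC library, at 33.1 FPKM, lay above the highest 2iL-ESC library, at 21.7 FPKM. The log2 difference was 0.75, 2.29 and 0.87 at days 18, 25 and 38 and 1.30 ± 0.22 (SE, adjusted p = 4.0e-04) over all days. Across days the level in OSKM-ESCs changed (adjusted p = 0.0015) while in 2iL-ESCs no change was detected (adjusted p = 0.21). Dnmt3a has 18 annotated transcripts of 369 to 9685 bases, which a gene level does not separate, and its coverage was only 0.411 to 0.882 per unit of FPKM, far under the library medians, so that its level cannot be compared safely with that of other genes. On scaled coverage in place of FPKM its day 18 difference was 0.38 and missed the threshold (adjusted p = 0.10). At day 38 the genes of chromosome 12 had, OSKM-ESCs minus 2iL-ESCs, a median log2 difference of 0.33 over 298 genes against 0.04 over all genes with a mean FPKM over 5. At days 18 and 25 the chromosome 12 median was 0.12 and 0.04. The part of that in the Dnmt3a difference was not tested.

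Dnmt3l (chromosome 10, 78041947 to 78063622, plus strand) changed direction between days. At day 18 it had 27.2 and 30.8 FPKM in OSKM-ESCs and 142 and 140.4 in 2iL-ESCs. At day 25 the order turned, with 82.9 and 75.4 FPKM in OSKM-ESCs and 31.9 and 32.5 in 2iL-ESCs. At day 38 it was 11.01 and 11.5 against 81.5 and 80.0 FPKM. Replicates lay close together on every day, and the log2 differences of -2.25 ± 0.11, 1.27 ± 0.09 and -2.74 ± 0.05 (SE) all passed, with adjusted p = 3.8e-05, 4.5e-04 and 1.1e-05. Mean FPKM was 4.87-fold higher in 2iL-ESCs at day 18, 2.46-fold higher in OSKM-ESCs at day 25 and 7.16-fold higher in 2iL-ESCs at day 38. Over all days together the difference of -1.24 ± 0.52 missed the threshold (adjusted p = 0.064). It was -2.49 (adjusted p = 5.8e-07) without day 25, and leaving out any 1 of the 4 day 25 libraries gave -1.57 to -1.53 and also passed. Relative to Dnmt3b, Dnmt3l stood at 0.0716 to 0.227 in OSKM-ESCs and at 0.635 to 1.31 in 2iL-ESCs, which do not overlap. Aire overlaps Dnmt3l on the other strand and had 0.0867 to 1.11 FPKM in OSKM-ESCs and 1.67 to 10.2 in 2iL-ESCs. Its level in 2iL-ESCs was 1.78 and 1.67 FPKM at day 18, 9.89 and 10.2 at day 25 and 9.99 and 8.58 at day 38, an order unlike that of Dnmt3l. Without strand the reads of the 2 genes cannot be fully told apart.

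Tet1 (chromosome 10, 62804570 to 62908996, minus strand), the leading Tet gene of naive ESCs, was lower in OSKM-ESCs at each day. OSKM-ESCs had 17.8 and 20.3 FPKM at day 18, 29.2 and 32.9 at day 25, and 15.7 and 16.01 at day 38, and 2iL-ESCs had 24.5 and 28.4, 40.4 and 41.5, and 39.9 and 37.1. The media did not overlap on any day, although over all days they did, because the OSKM-ESCs of day 25 exceeded the 2iL-ESCs of day 18. Log2 differences were -0.45, -0.39 and -1.23 (adjusted p = 0.029, 0.023 and 6.7e-05) and -0.69 ± 0.13 (SE, adjusted p = 6.6e-04) over all days. The day 18 and day 25 values rest on single libraries, since the call was lost without any 1 of the 4 libraries of day 18 (adjusted p up to 0.18) and without either 2iL-ESC library of day 25 (0.17 and 0.20).

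Tet2 (chromosome 3, 133463679 to 133545139, minus strand) was 2.53-fold higher in 2iL-ESCs in mean FPKM over all days. Its FPKM was 4.78 and 5.83 at day 18, 4.51 and 5.22 at day 25, and 5.42 and 5.95 at day 38 in OSKM-ESCs. 2iL-ESCs had 9.89 and 11.4, 15.98 and 16.8, and 13.3 and 12.9. The highest OSKM-ESC library (5.95 FPKM) was below the lowest 2iL-ESC library (9.89 FPKM), and Tet2 was the only gene of those tested in OSKM-ESCs in which no change across days was detected (adjusted p = 0.49). The log2 difference was -0.89, -1.57 and -1.07 by day and -1.18 ± 0.11 (SE, adjusted p = 3.6e-06) over all days. Without replicate 2 of the 2iL-ESCs the day 18 call was lost (adjusted p = 0.065).

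Tet3 (chromosome 6, 83362373 to 83459084, minus strand), known for its role in the oocyte and zygote and in differentiated cells, went the other way. OSKM-ESCs had 1.89 and 3.19 FPKM at day 18, 4.04 and 4.34 at day 25, and 4.63 and 4.82 at day 38. 2iL-ESCs stayed at 0.514 to 0.987 FPKM in all 6 libraries. The lowest OSKM-ESC library was above the highest 2iL-ESC library, and mean FPKM was 5.18-fold higher in OSKM-ESCs. The log2 difference was 1.44 ± 0.15 (SE, adjusted p = 7.8e-06) over all days and 0.98, 1.45 and 1.90 at days 18, 25 and 38. Tet3 was below the FPKM limit of 1 in all 2iL-ESC libraries and entered the fits through OSKM-ESCs, where it is high, so its call is no independent support. Without that limit the adjusted p over all days was 2.8e-04. MEF cells had 3.08 and 3.03 FPKM, and the difference was 1.43 over all days with the estimated fibroblast share taken off. The day 18 call was lost without either 2iL-ESC library of that day (adjusted p = 0.085 and 0.12) and without replicate 2 of the OSKM-ESCs (0.052).

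Together the 3 Tet genes summed to 24.5 to 42.4 FPKM in OSKM-ESCs and 35.3 to 59.2 FPKM in 2iL-ESCs. Tet1 made up 59.8% to 77.5% of the sum in OSKM-ESCs and 69.4% to 74.3% in 2iL-ESCs, which overlap. Tet2 made up 11.9% to 22.2% and 24.7% to 28.3%. Tet3 made up 7.72% to 18.0% and 0.958% to 2.59%, with the highest shares at day 38 in OSKM-ESCs. The same division was seen in iPSCs, where Tet3 made up 18.0% and 9.57% in clones 1 and 3 of OSKM-iPSCs and 1.66% and 1.46% in clones 3 and 6 of 2iL-iPSCs. MEF cells had a Tet sum of only 5.51 and 5.27 FPKM, of which Tet3 made up 56.0% and 57.5%. These are shares of FPKM, a scale per length, with no test.

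**Figure D2:**
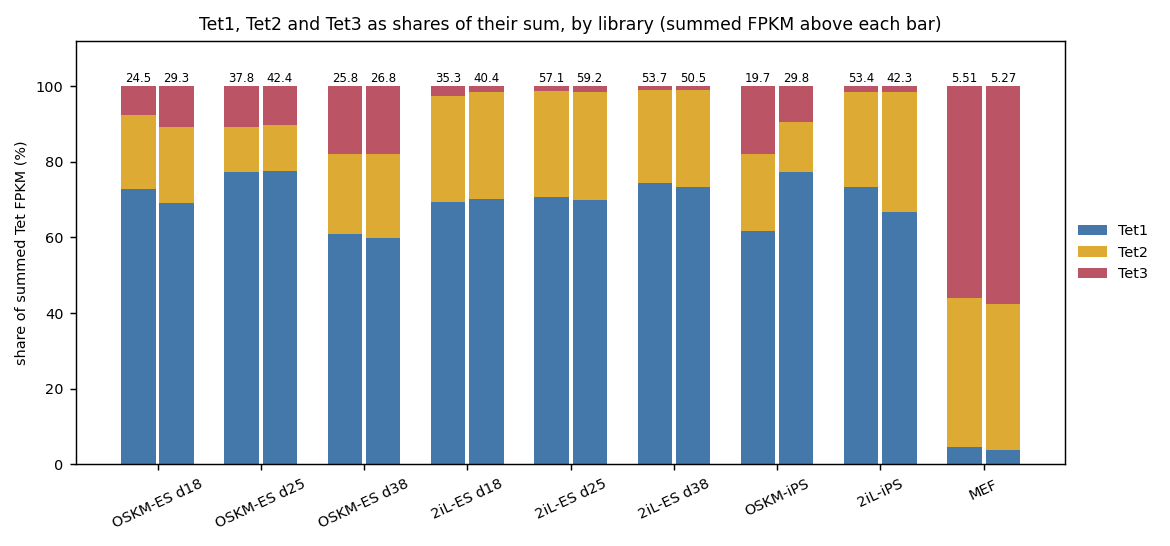
Share of Tet1, Tet2 and Tet3 in their summed FPKM (vertical axis, percent), 1 bar per library in 9 groups, with the sum in FPKM above each bar. Tet3 takes 7.72% or more in every OSKM-ESC and OSKM-iPSC library, 2.59% or less in every 2iL library, and 56.0% and 57.5% in MEF cells, where the sum is lowest.

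Pramel6 and Pramel7 encode leucine-rich repeat proteins of the PRAME family that are expressed in the inner cell mass and germ line, and both were detected in every 2iL-ESC library and listed at or near 0 in OSKM-ESCs. Pramel6 had 6.32 and 5.25 FPKM at day 18, 5.18 and 3.12 at day 25, and 2.52 and 2.25 at day 38 in 2iL-ESCs. In OSKM-ESCs it was listed at 0 in 5 libraries and at 0.0265 FPKM in replicate 1 of day 25. Pramel7 had 4.42 and 3.37, 1.12 and 1.42, and 1.73 and 1.09 FPKM in 2iL-ESCs and was listed at 0 in all 6 OSKM-ESC libraries. Since no read counts are given and the OSKM-ESC values are at 0, no fold is given. On log2(FPKM + 1) the differences over all days were -2.28 ± 0.16 (SE, adjusted p = 3.2e-07) and -1.57 ± 0.18 (SE, adjusted p = 1.5e-05), sizes that depend on the added 1 and reached -5.23 and -4.32 with a pseudocount of 0.1. Both entered the ESC fits through the 2iL-ESCs, the group in which they exceeded 1 FPKM. Their tests therefore add nothing to the values themselves. Within 2iL-ESCs both were highest at day 18, and across days they changed (adjusted p = 0.019 and 0.0061). In the order of groups 2iL-iPSCs and 2iL-ESCs of day 18 came first, and their ranges overlapped.

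The PRAME family has 14 genes listed in the files, of which 7 exceeded 1 FPKM in a library. Pramef12 had a mean of 6.86 FPKM in OSKM-ESCs and 18.6 in 2iL-ESCs, and Pramef8 4.48 and 6.79, so absence from OSKM-ESCs was not shared by every family member. Cul2, the cullin of the ligase that PRAMEL7 is known to use, had 20.7 to 29.8 FPKM in OSKM-ESCs and 33.8 to 43.9 in 2iL-ESCs (log2 difference -0.54, adjusted p = 2.2e-04).

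The medium difference itself changed between days for all 10 genes, where 37.9% of all genes did (limma F test of the interaction of medium and day). Pramel6 and Pramel7 were at or near 0 in every OSKM-ESC library, so their result restates their change across days in 2iL-ESCs. Tet3 was under the FPKM limit of 1 in every 2iL-ESC library and entered only through OSKM-ESCs. The change was clearest for Dnmt3l (adjusted p = 2.4e-07), Dnmt3b (1.2e-06), Dnmt3a (0.0013), Tet1 (0.0021) and Pramel7 (0.0054). For Dnmt1 (0.018), Tet2 (0.019), Uhrf1 (0.021), Pramel6 (0.026) and Tet3 (0.031) it rests on single libraries, with adjusted p up to 0.091. Uhrf1 was lost without any 1 library of day 38 or of the 2iL-ESCs of day 18. Dnmt1 was lost without either 2iL-ESC library of day 18 or replicate 2 of day 25. Pramel6 was lost without any 1 library of day 38, either OSKM-ESC library of day 18 or replicate 1 of its 2iL-ESCs. Tet3 was lost without any 1 library of day 38, either 2iL-ESC library of day 25 or replicate 1 of day 18, and Tet2 without either 2iL-ESC library or OSKM-ESC replicate 1 of day 25. Leaving out any 1 of the libraries gave 6 to 10 genes. The count was lowest, at 6, without replicate 1 of 2iL-ESCs of day 18, and it was also 6 without the filter on low values and in a fit of all 9 groups. Across the 3 days in OSKM-ESCs, 7 of the 8 genes tested changed, against 38.6% of genes, and in 2iL-ESCs 8 of the 9 tested, against 50.8%. In OSKM-ESCs the call was lost for Tet3 without replicate 1 of day 18 or any 1 library of days 25 and 38 (adjusted p up to 0.11), and for Uhrf1 without either library of day 38 (0.074 and 0.068). In 2iL-ESCs it was lost for Uhrf1 without replicate 1 of day 18 or any 1 library of days 25 and 38 (up to 0.12), and for Pramel6 without replicate 1 of day 18 or either library of day 38 (up to 0.085). Without replicate 1 of day 25, Dnmt3a passed in 2iL-ESCs (0.018). In OSKM-ESCs Dnmt1, Uhrf1 and Tet3 were highest at day 38, while Dnmt3a, Dnmt3b, Dnmt3l and Tet1 were highest at day 25. In 2iL-ESCs Dnmt3b and Dnmt3l were highest at day 18 and lowest at day 25, and Tet1 and Tet2 were highest at day 25. Day and any batch of culture or sequencing cannot be told apart.

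**Figure D3:**
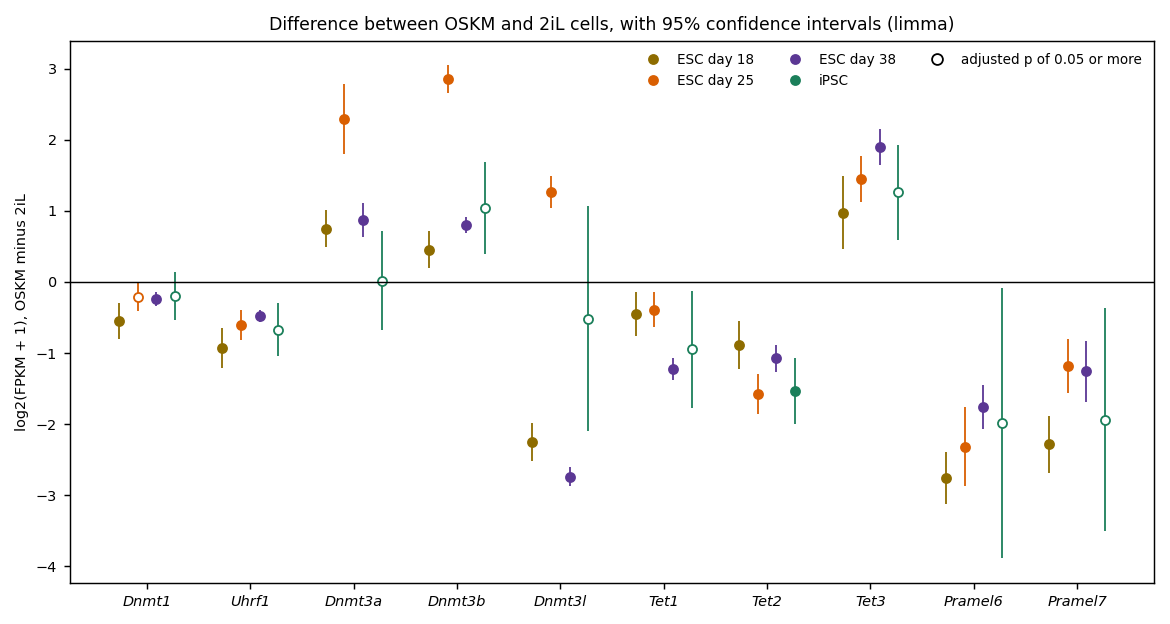
Difference between OSKM and 2iL cells in log2(FPKM + 1) (vertical axis, OSKM minus 2iL) for each of the 10 genes at days 18, 25 and 38 in ESCs and in iPSCs, with 95% confidence intervals from limma; open circles have an adjusted p of 0.05 or more. Dnmt3l is below 0 at days 18 and 38 and above 0 at day 25, and in iPSCs only Tet2 is filled.

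By day, 10 of the 10 genes passed at day 18 (43.4% of all genes), 9 at day 25 (46.0%) and 10 at day 38 (59.8%). Tet3, Pramel6 and Pramel7 entered each of these fits only through the medium in which they are high and had to differ. The day 18 count fell to 6 and 5 without replicate 1 or 2 of the 2iL-ESCs, with Dnmt1, Dnmt3b, Tet1 and Tet3 lost without either of them and Tet2 lost without replicate 2. Without replicate 2 of the OSKM-ESCs, Dnmt3b, Tet1 and Tet3 were lost, and without replicate 1, Tet1. At day 25 Uhrf1 (adjusted p = 0.069 and 0.062) and Tet1 were lost without replicate 1 or 2 of the 2iL-ESCs. At day 38 the 10 calls held without any 1 library.

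In iPSCs, 1 of the 10 genes passed, Tet2, where 7.96% of 13653 genes did. It was lower in OSKM-iPSCs, against 2.96% of all genes. Tet2 had 3.99 and 3.95 FPKM in OSKM-iPSC clones 1 and 3 and 13.3 and 13.5 in 2iL-iPSC clones 3 and 6, a log2 difference of -1.53 ± 0.18 (SE, adjusted p = 0.017), which was lost without either 2iL-iPSC clone (adjusted p = 0.32). Tet3 had 3.54 and 2.85 FPKM against 0.887 and 0.617, and its difference of 1.26 stood at the threshold (adjusted p = 0.05005). Uhrf1 had 123 and 148 FPKM against 209 and 222 (log2 difference -0.67, adjusted p = 0.056), and Dnmt3b 133 and 222 against 87.8 and 78.2 (1.04, adjusted p = 0.067). In 8 of the 10 genes, all but Dnmt3a and Dnmt3l, the clones of the 2 media did not overlap, as 62.6% of all genes did not. Dnmt3b and Tet3 lay higher in OSKM-iPSCs (37.2% of all genes) and the other 6 lower (25.4%), each as in ESCs. Tet3 was under the FPKM limit of 1 in both 2iL-iPSC clones and entered the fit only through the OSKM-iPSCs. Dnmt3b passed without OSKM-iPSC clone 1 (adjusted p = 0.033) and Tet3 without clone 3 (0.043).

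The OSKM-iPSC clones lay apart in Dnmt3l, Pramel6, Pramel7 and Tet1, as they did in Dnmt3b. Clone 3 of the OSKM-iPSCs had 163 FPKM of Dnmt3l, 2.23 of Pramel6, 1.09 of Pramel7 and 23.0 of Tet1. Clone 1 had 40.6, 0, 0 and 12.2 FPKM of these genes and is the library with the fibroblast share of 6.31%. 2iL-iPSC clone 3 had 144 FPKM of Dnmt3l, 11.9 of Pramel6, 8.66 of Pramel7 and 39.2 of Tet1, and clone 6 had 94.5, 2.90, 2.16 and 28.2. Dnmt3a had 24.3 and 36.1 FPKM in OSKM-iPSCs and 35.9 and 23.9 in 2iL-iPSCs, a difference of 0.02 with a 95% interval of -0.68 to 0.71. For Dnmt3l the interval was -2.09 to 1.06, and for Dnmt1, with 70.4 and 74.7 against 83.6 and 83.1 FPKM, it was -0.53 to 0.14. The number of the 10 genes that passed depended on the fit, with 8 in a fit of all 9 groups, 7 without the filter on low values and 5 by the paper's cutoff of a 2-fold change and an unadjusted p under 0.05. The number called among all genes also rose above the 1087 of the main fit under each of these settings, as counted in a later section. Among all genes, 683 were higher and 404 lower, a split that became 567 and 496 with median-ratio scaling and 422 and 440 with quantile normalization.

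Whether the medium difference was the same in iPSCs and ESCs was tested directly. It differed for 1 gene, Dnmt3a, where 14.2% of all genes differed, 8.67% upward and 5.55% downward, with a difference of differences (iPSC minus ESC) of -1.29 ± 0.26 (SE, adjusted p = 0.0088, and 0.058 without the filter on low values). On scaled coverage the Dnmt3a value was -0.52 (adjusted p = 0.023). For Uhrf1 the 95% interval of the difference of differences was -0.24 to 0.24, and for Tet3 it was -0.63 to 0.27. The interval was -0.65 to -0.06 for Tet2, which missed the threshold after adjustment (adjusted p = 0.098), and for Pramel6 it was as wide as -1.07 to 1.65. The count was 2 without OSKM-iPSC clone 1, with Dnmt3l added at 1.71 (adjusted p = 3.2e-04), and 3 without clone 3, with Dnmt3b (-0.69) and Tet1 (-0.69) added. Without clone 3 the Dnmt3l value turned to -0.26. The comparison uses the same libraries as those of ESCs and iPSCs above.

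MEF cells expressed Dnmt1 (25.3 and 26.0 FPKM), Uhrf1 (19.8 and 19.4), Dnmt3a (4.31 and 4.02), Tet2 (2.17 and 2.04) and Tet3 (3.08 and 3.03) and little else of the list. Dnmt3b was at 0.302 and 0.408 FPKM, Dnmt3l at 0.0207 and 0.0777, Tet1 at 0.252 and 0.200, and Pramel6 and Pramel7 were listed at 0. In OSKM-iPSCs 7 of the 10 genes differed from MEF cells, where 60.3% of all genes did. All 7 were higher and 0 lower, against 34.0% and 26.4% of all genes. Among them Dnmt3b, Dnmt3l and Tet1 were under the FPKM limit of 1 in both MEF libraries. They entered the fit only through the OSKM-iPSCs, where they are high, and had to differ. The largest log2 differences were 7.00 for Dnmt3b and 6.30 for Dnmt3l. Pramel6 (0.84, adjusted p = 0.28), Pramel7 (0.53, adjusted p = 0.31) and Tet3 (0.04, adjusted p = 0.83) did not pass, and Tet3 turned to -0.08 with median-ratio scaling, which moved the median of all genes from 0.19 to 0.05. Without clone 1 of the OSKM-iPSCs, Pramel6 and Pramel7 passed as well. All 7 calls were lost without MEF replicate 1 and without MEF replicate 2, with adjusted p of 0.062 to 0.18.

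In 2iL-iPSCs all 10 genes differed from MEF cells, where 78.0% of all genes did, 9 of them higher (40.6% of all genes) and Tet3 lower (37.4%). Dnmt3b, Dnmt3l, Tet1, Pramel6 and Pramel7 were under the FPKM limit of 1 in both MEF libraries, and Tet3 in both 2iL-iPSC clones. These genes entered the fit only through the side where they are high and had to differ, so their calls are no independent support. Tet3 had a log2 difference of -1.22 ± 0.14 (SE, adjusted p = 9.8e-04) and a mean FPKM of 0.752 against 3.06. The other differences ran from 1.66 for Dnmt1 to 6.81 for Dnmt3l, with Uhrf1 at 3.39, Dnmt3a at 2.55, Tet2 at 2.21 and Tet1 at 4.804. Without either MEF library, Pramel6 and Pramel7 missed the threshold (adjusted p = 0.14 and 0.15). Both comparisons share the MEF libraries.

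Genes that work beside these 10 were counted in lists in ESCs over all days, in the order of their role. Of all genes, 29.5% were higher and 24.4% lower in OSKM-ESCs. Of 10 maintenance partners 2 were higher and 4 lower in OSKM-ESCs (median log2 difference -0.14, that of all genes 0.03). The lower ones included Dppa3, which keeps UHRF1 from chromatin, with 8.20 to 13.8 FPKM in OSKM-ESCs and 35.5 to 46.0 in 2iL-ESCs (log2 difference -1.81, adjusted p = 1.1e-07). They also included Usp7, a deubiquitinase of UHRF1 and DNMT1 (-0.60), Cul2 and Hells, a chromatin remodeller needed for normal methylation (-0.42, adjusted p = 0.022). Higher were Cdca7l (0.92) and Uhrf2, a paralogue of Uhrf1 (0.53). In iPSCs Dppa3 had 25.5 and 51.8 FPKM in OSKM-iPSCs and 43.1 and 34.6 in 2iL-iPSCs, and its medium difference was not that of ESCs (difference of differences 1.72, adjusted p = 0.0057).

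Known regulators of the methylation genes in ESCs numbered 6, with 1 higher and 2 lower. Prdm14, which is known to repress Dnmt3b and Dnmt3l, had 0.565 to 0.916 FPKM in OSKM-ESCs and 7.91 to 13.5 in 2iL-ESCs (log2 difference -2.73, adjusted p = 3.0e-09) and 0.382 and 0.841 against 9.94 and 13.7 FPKM in iPSCs (-2.99, adjusted p = 0.011). It was under the FPKM limit of 1 in every OSKM-ESC library and OSKM-iPSC clone. Prdm14 thus entered these fits only through the 2iL cells, where it is high, and had to be lower. Within 2iL-ESCs Prdm14 was highest at day 25, with 13.5 and 12.5 FPKM, the day at which Dnmt3b and Dnmt3l were lowest in that medium. OSKM-ESCs had 0.680 and 0.565 FPKM of Prdm14 at day 25 and 0.570 to 0.916 FPKM on their other days. In that medium Dnmt3b and Dnmt3l were highest at day 25. The part of Prdm14 in the levels of these genes was not tested, and day and batch cannot be told apart. Nanog was lower in OSKM-ESCs (-2.70) and Myc higher (3.35), but Myc is also in the DOX-induced cassette, and reads of the gene and of the cassette cannot be told apart.

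For oxidation and base excision 17 of 18 genes were tested, of which 4 were higher and 9 lower, with a median of -0.43. Tdg, the glycosylase that removes oxidized methylcytosine, was higher in OSKM-ESCs (14.8 to 19.3 against 9.91 to 15.997 FPKM, log2 difference 0.36, adjusted p = 0.0048). Gadd45a (1.12) and Gadd45g (1.07) were higher, and Gadd45b (-1.28) and Idh2, a source of the TET cofactor 2-oxoglutarate (-1.04), were lower. Of 6 methyl-CpG readers tested 3 were higher, led by Zbtb33 (1.10) and Mbd2 (0.39), and Zbtb38 was lower (-0.89). Of 9 genes that protect imprints and repeats 4 were higher, led by Ehmt1 (0.53) and Setdb1 (0.45), and 3 were lower, led by Zfp57 (-1.04) and Morc3 (-0.92). The 8 methyl donor enzymes had 2 higher, Ahcyl1 (0.27) and Mthfd2 (0.26), and 1 lower, Mtr (-0.25), with a median of 0.03 like that of all genes.

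Germline genes known to be silenced by promoter methylation formed the list with the lowest median. All 10 of those tested, of 12, were lower in OSKM-ESCs (median log2 difference -1.78), where 24.4% of all genes were. Only 7 exceeded an FPKM of 1 in an OSKM-ESC library. The rest passed the filter on low values only through 2iL-ESCs, where they are high, and had to be lower. The differences ran from Rpl10l (1.33 to 8.54 against 76.2 to 104 FPKM, log2 difference -4.37) and Dazl (0.104 to 1.0045 against 6.67 to 11.7 FPKM, -2.81) to Slc25a31 (-0.70) and Taf7l (-0.49). The list summed to 13.1 to 14.3 FPKM at day 18, 31.0 to 36.4 at day 25 and 8.57 to 8.83 at day 38 in OSKM-ESCs, and to 194 to 200.4, 145 to 149 and 143 to 147 in 2iL-ESCs. The 2 OSKM-iPSC clones had sums of 13.7 and 51.5 FPKM, and 2iL-iPSCs of 182 to 252 FPKM. In iPSCs 3 of the 11 tested were lower and 0 higher. Of all 13653 genes tested there, 2.96% were lower and 683 genes higher. Only 9 of the germline genes exceeded an FPKM of 1 in an OSKM-iPSC clone, among them the 3 called, Rpl10l, Dazl and Tex19.1. The rest passed the filter only through 2iL-iPSCs and could only be lower.

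**Figure D4:**
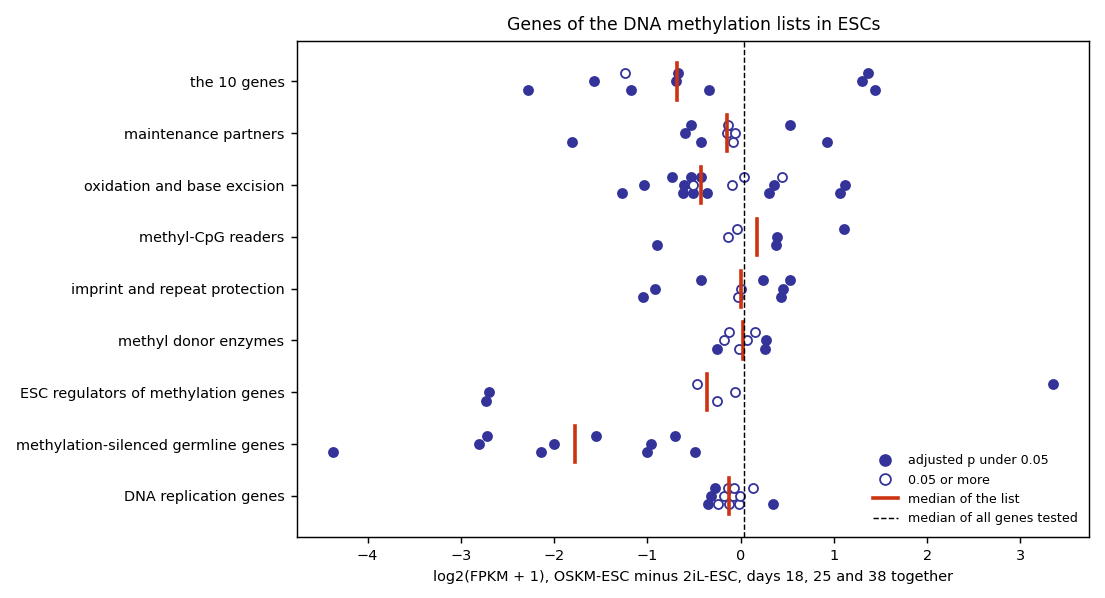
Difference between OSKM-ESCs and 2iL-ESCs in log2(FPKM + 1) over days 18, 25 and 38 (horizontal axis) for each gene tested in 9 lists; filled points have an adjusted p under 0.05, the red bar is the median of the list and the dashed line the median of all genes, 0.03. The germline list lies wholly below 0, at a median of -1.78, and the 10 genes spread from -2.28 to 1.44.

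How the 10 genes moved together is described over the 16 ESC and iPSC libraries, which share medium and day, so the values have no p. On log2(FPKM + 1), Pearson's r was 0.96 for Pramel6 with Pramel7, 0.90 for Dnmt3a with Dnmt3b and 0.83 for Dnmt1 with Uhrf1. Tet2 with Tet3 stood at -0.87 and Dnmt3b with Tet2 at -0.85. Over both media together Dnmt3l had an r of -0.02 with Dnmt3a and 0.05 with Dnmt3b. By day within a medium they were alike in part, since all 3 were highest at day 25 in OSKM-ESCs. In 2iL-ESCs Dnmt3b and Dnmt3l were lowest at day 25. The Dnmt3a mean was also lowest there, but no change across days was detected (limma F test, adjusted p = 0.21). Its low rests on 1 library, at 13.3 FPKM, while the other stood at 19.7 FPKM. The genes with the most similar pattern among 11770 were Ipo13 for both Dnmt3a (0.93) and Dnmt3b (0.96), Xlr3c for Pramel6 (0.97), and the uncharacterized 4930591A17Rik for Pramel7 (0.97), with Xlr3c next (0.97). For the others they were Edc4 for Dnmt1 (0.95), Tmem231 for Uhrf1 (0.96), Mkrn1 for Dnmt3l (0.92), Rest for Tet1 (0.94), Pip5k1b for Tet2 (0.98) and Vash2 for Tet3 (0.98).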

How the data were processed

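RNA-Seq values of 18 libraries in 9 groups of 2 were used. Per the labels and the paper's methods, mRNA was selected with poly-T beads and made into libraries with a kit that does not keep strand. The authors aligned reads to GRCm38 with STAR 2.7.1a, kept uniquely mapped reads and ran StringTie 2.0, with Cuffdiff 2.2.1 for their own tests, whose values were not used here. The deposited FPKM values are normalized by the authors' StringTie run for length and mapped fragments. The authors also deposited coverage, a signal giving mean reads per base and not normalized, which was scaled by each library's median ratio to FPKM in an alternative. The deposited TPM was not used. For 2 genes a value had failed and they were left out, and 11 identifiers listed more than once were summed. Coordinates in the files equal GENCODE M21 for 54846 genes.

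Each comparison used its own libraries and the genes that exceeded an FPKM of 1 in any of them. limma 3.58.1 in R 4.3.3 (lmFit, then eBayes with a trend) was run on log2(FPKM + 1), and day entered as a term where days were joined. Benjamini-Hochberg adjusted p under 0.05, across every gene in the comparison, was the threshold. The fit was tested on simulated data. Fold changes on this scale understate changes of low genes. Named are the 10 genes, 5 partners (Dppa3, Hells, Prdm14, Tdg, Cul2), from each list up to 2 called genes with the highest and 2 with the lowest log2 difference in ESCs over all days, and the gene closest in pattern. The members and lists were chosen with earlier results of these data known. Python 3.11.15 with pandas 2.3.3 and biopython 1.88 was used for the tables. Alternatives were a pseudocount of 0.1, other filters, median-ratio scaling, quantile normalization, no trend, a fit of all 9 groups, the paper's cutoff, a replicate block and leaving out each library. Scaled coverage, removal of a fibroblast share and leaving out day 25 were added after seeing the data.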

Additional observations from a re-analysis of the deposited data

Results flagged for a closer look

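In ESCs the difference between media changed from day to day for each of the 10 genes (F test in limma, with Benjamini-Hochberg adjusted p of 2.387e-07 for Dnmt3l, 1.248e-06 for Dnmt3b, 0.001261 for Dnmt3a, 0.002112 for Tet1, 0.005358 for Pramel7, 0.0176 for Dnmt1, 0.01882 for Tet2, 0.02145 for Uhrf1, 0.02628 for Pramel6 and 0.03078 for Tet3), where 37.9% of all genes passed. Dnmt3l was the only one of the 10 whose difference turned sign between days. The medium difference of Dnmt3a was not the same in iPSCs as in ESCs (adjusted p = 0.008764).

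In 19 sets of 6 ESC libraries of one medium, 2 held a library far from the other 5. The sets join 3 days, between which most of the genes changed, so no number expected by chance can be given. Dnmt3a in replicate 2 of the 2iL-ESCs of day 25, at 13.3 FPKM, lay below the others with a gap of 0.629 of the range. Pramel6 in replicate 1 of the OSKM-ESCs of day 25, at 0.0265 FPKM, was the only value above 0 in OSKM-ESCs. Its gap of 1.0 of the range follows from the other values being 0.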

How the results depend on the processing

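Of the results for single genes under the alternatives, 1578 kept their direction and side of the threshold, 115 lost the call, 45 gained it and 26 reversed. No cause of these changes was tested. The groups hold 2 libraries each, the depth in reads is unknown and levels below 1 FPKM are imprecise.

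By the paper's cutoff the genes called numbered 3378 in ESCs over all days, 3116 at day 18, 3141 at day 25, 3324 at day 38 and 2428 in iPSCs, with 5 of the 10 genes at day 18, 6 at day 38 and 5 in iPSCs. In iPSCs the number of the 10 genes called was 7 without the filter, 3 with an FPKM over 1 in at least 2 libraries, 2 with median-ratio scaling, 2 without the trend and 8 in a fit of all 9 groups, and the genes called numbered 3586 without the filter and 6143 in the fit of all 9 groups. For medium by day 6 of the 10 were called without the filter and 6 in the fit of all 9 groups, with 3112 genes. Across days in 2iL-ESCs that fit called 4 of the 10 and 4253 genes. For the difference between cell types 0 of the 10 passed in limma without the filter, with 1326 genes called, and 2 passed with median-ratio scaling, 2 with quantile normalization and 2 on scaled coverage. Its split of higher and lower genes, 1268 and 811, became 1054 and 1023 with median-ratio scaling and 994 and 1102 with quantile normalization.

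Reversed values were those of Dnmt3a in iPSCs (-0.074 with median-ratio scaling, -0.043 with quantile normalization), Tet3 in OSKM-iPSCs against MEF cells (-0.085 with median-ratio scaling, -0.0024 on scaled coverage) and, between cell types, Uhrf1 (0.030 with quantile normalization and 8.3e-05 at the pseudocount 0.1) and Pramel7 (0.63 at that pseudocount). None of these passed the test in the first place.

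Leaving out 1 library gave 9 to 10 of the 10 genes and 6909 to 7541 genes in ESCs over all days, 5 to 9 and 2642 to 4171 at day 18, 7 to 10 and 2864 to 6792 at day 25, and 10 and 5644 to 6108 at day 38. It gave 0 to 2 and 0 to 2076 in iPSCs, 0 to 9 and 0 to 9775 in OSKM-iPSCs against MEF cells, and 8 to 10 and 7190.0 to 10144 in 2iL-iPSCs against MEF cells. Where limma called 0 genes, 1880.0 and 1917 genes in iPSCs and 5832 and 5877 against MEF cells had an unadjusted p under 0.05. The ranges were 6 to 10 and 3917 to 5613 for medium by day, 5 to 7 and 1972 to 5608 across days in OSKM-ESCs, 6 to 8 and 4157 to 6170 in 2iL-ESCs, and 1 to 3 and 1406 to 3656 between cell types. Where a group then held 1 library, that library was assumed to vary like the others. Log2 values that reversed without a library ranged in iPSCs from -1.502 to 0.473 for Dnmt3l and from -0.268 to 0.301 for Dnmt3a, and in OSKM-iPSCs against MEF cells from -0.073 to 0.161 for Tet3. Between cell types they ranged from -0.264 to 1.71 for Dnmt3l, -0.128 to 0.128 for Uhrf1, -0.573 to 1.16 for Pramel6, -1.17 to 0.445 for Pramel7, -0.691 to 0.042 for Dnmt3b and -0.692 to 0.177 for Tet1.

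Replicate numbers of the ESC groups did not pair the libraries, since the correlation of deviations over 11856 genes was 0.152, 0.107 and 0.0263 at days 18, 25 and 38. With the replicate block 6673 genes were called over all days, 6531 at day 18, 6539 at day 25 and 7538 at day 38, with 9, 10, 9 and 10 of the 10 genes. No paired analysis was possible because the iPSC and MEF groups share fewer than 2 numbers.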

Other observations

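Markers of the formative epiblast, the state that follows naive pluripotency, were higher in OSKM-ESCs in 4 of 5 genes over all days, where 29.5% of all genes were, with a median log2 difference of 2.24 against 0.03 for all genes. They were Pou3f1 (3.14), Otx2 (3.10), Fgf5 (2.24) and Sox4 (1.78), while Lef1 did not pass (0.53, adjusted p = 0.081). Only 3 of the 5 exceeded an FPKM of 1 in a 2iL-ESC library. The rest passed the filter on low values only through OSKM-ESCs and had to be higher. In iPSCs 3 of the 5 were higher in OSKM-iPSCs, where 683 of all 13653 genes tested were. Only 2 of the 5 exceeded an FPKM of 1 in a 2iL-iPSC clone. The rest passed the filter only through OSKM-iPSCs and had to be higher. Markers of other lineages also moved. Over all days 4 of 5 neural markers were higher, with a median of 0.75, among them Nes (1.32) and Map2 (0.99), while Tubb3 was lower (-0.83). Only 3 of the neural markers exceeded an FPKM of 1 in a 2iL-ESC library. At day 38 the 3 primitive endoderm markers tested had a median of 1.30, but they passed the filter only through OSKM-ESCs and had to be higher. Of 3 trophoblast markers tested at day 38, Cdx2 (4.41) and Eomes (0.70) were higher, where 34.6% of all genes were. Tfap2c was lower (-0.96), where 25.2% were. Only 2 of these 3 exceeded an FPKM of 1 in a 2iL-ESC library of day 38, and the remaining gene had to be higher. Of 10 pluripotency markers 2 were higher and 6 lower in OSKM-ESCs, and Pou5f1, also in the cassette, had a difference of -0.01 (adjusted p = 0.94). In iPSCs the genes of the X chromosome had a median log2 difference of 0.47 over 273 genes, OSKM-iPSCs minus 2iL-iPSCs, against 0.04 over all genes with a mean FPKM over 5. In ESCs that median was 0.11, 0.03 and 0.17 at days 18, 25 and 38.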
